A study of Mus musculus with 8 samples.

Results

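The synaptic vesicle and release machinery was described here through 31 genes, chosen by name and grouped by function as SNARE proteins, SNARE disassembly factors, complexins, synaptotagmins, vesicle proteins, vesicular glutamate transporters, active zone proteins and endocytic proteins. Each gene was represented by the row of the RefSeq transcript count table with its highest total over the 8 libraries, and the whole table held 21643 gene symbols. The libraries were made from polyribosome-associated mRNA of C57BL/6 mice aged 7 to 9 weeks, collected 1 h or 6 h after the mice had been in a training chamber. There was 1 library for each combination of tissue (frontal cortex or hippocampus), time and training. Fear conditioned mice had been trained in contextual fear conditioning, in which a chamber is paired with shock, and control mice had been exposed to the context alone. No genotype, transgene or drug distinguished the groups, and all libraries went through the same removal of ribosomal RNA, priming with random hexamers and poly A primers, SPIA amplification (an isothermal linear amplification of cDNA) and PCR. The design text speaks of 8 adult mice and of prefrontal cortex alone, whereas 4 libraries are labelled hippocampus. The sources used here do not say whether a library pooled animals. With 1 library a combination, p-values rest on what the models of tissue, time and training leave unexplained, not on a spread between replicates. This remainder may be technical.

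A nerve terminal releases transmitter when a vesicle membrane protein of the VAMP family pairs with syntaxin-1 and SNAP-25 of the plasma membrane into a SNARE complex, which synaptotagmins couple to calcium and complexins clamp or promote. Active zone proteins dock and prime the vesicles beside calcium channels, NSF and the SNAP adaptors take spent SNARE complexes apart, and dynamin, amphiphysin and synaptojanin retrieve the membrane. In forebrain, most of these genes are expressed across neurons, while isoforms such as the vesicular glutamate transporters differ between cell classes.

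Library totals ranged from 2370973 to 5296986 counts. The cortex and hippocampus libraries of conditioned mice at 1 h differed by no more than sampling noise, with a mean chi-square per gene of 1.06 over 11338 genes against 4.74 for the next closest pair of libraries. Tissue markers of this pair lay between those of the other cortex and hippocampus libraries. The pair was therefore summed and counted as 1 sample in the comparisons of times and of training, and left out of the comparison of tissues. The hippocampus control 6 h library stood apart, with a mean chi-square of at least 63.1 against any other library. Of the 31 release genes, 13 had their lowest and 12 their highest level there. Over 11977 genes, the same library held the lowest value for 36.7% and the highest for 31.9%. In bulk tissue, fewer cells of a type and less RNA per cell cannot be told apart. As the libraries hold polyribosome-associated mRNA, less of an mRNA and less of it on polyribosomes cannot be told apart either.

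Levels are given as CPM (counts relative to library size) scaled with TMM library factors, and between genes as CPM per kilobase of transcript. Snap25, the plasma membrane SNARE of neurons, had the highest median level per kilobase, at 5551.4 CPM per kb. Vamp2, the main vesicle SNARE of forebrain synapses, came next at 953.5, followed by the vesicle membrane protein synaptophysin (Syp) at 552.5 and the vesicle-tethering synapsin Syn1 at 449.7. Rab3a (the vesicle GTPase), Nsf and Dnm1 lay between 337.6 and 270.3 CPM per kb. The lowest were Syt2, a fast calcium sensor of some interneurons and hindbrain neurons, at 3.52, Slc17a6 (VGLUT2, mainly of subcortical glutamate neurons) at 1.94 and Sv2c at 1.62. Neighbours in this order, such as Rab3a and Nsf, had overlapping ranges over the libraries (102.6 to 493.0 and 292.7 to 520.2 CPM per kb), whereas the lowest Snap25 level, 2815.1, was above the highest Vamp2 level, 1125.9.

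**Figure D1:**
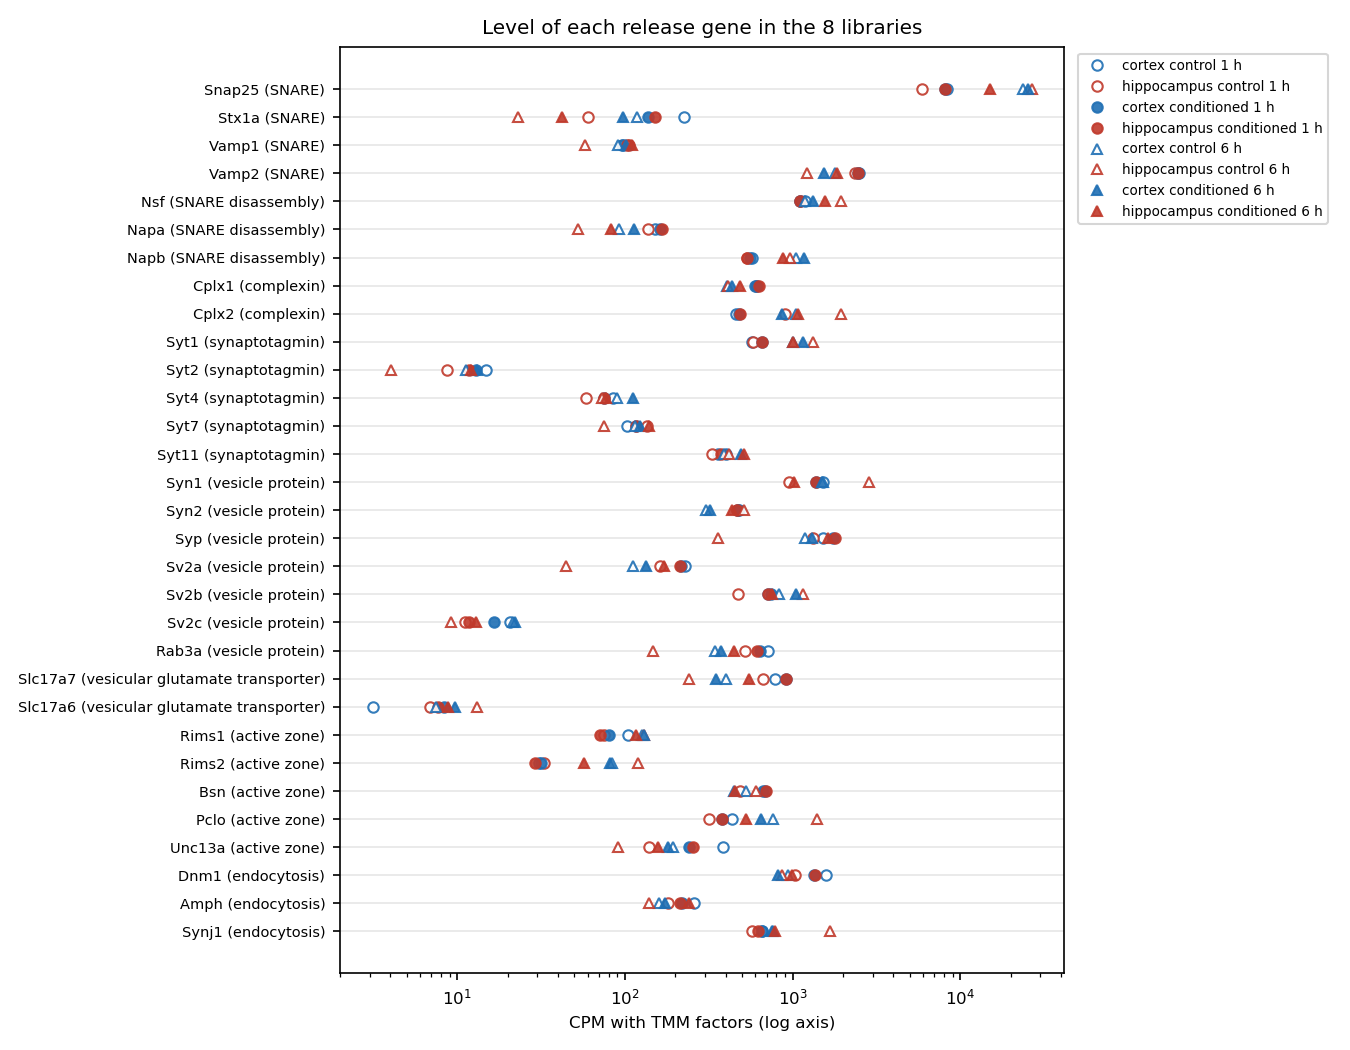
Level of each of the 31 release genes in each of the 8 libraries, in CPM with TMM factors on a log axis, with the role of each gene in brackets. Open red triangles, the hippocampus control 6 h library, are lowest for 13 genes and highest for 12, and Snap25 is the most abundant in every library.

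The release genes together took between 2.34% and 2.70% of a library's counts at 1 h and between 3.08% and 4.00% at 6 h. Snap25 alone accounted for 0.684% to 0.889% at 1 h and for 1.48% to 2.46% at 6 h. The other members held 1.65% to 1.81% at 1 h and 1.39% to 1.59% at 6 h. The share of the whole list was thus higher at 6 h in every library, while that of the list without Snap25 was lower in every library.

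At 6 h compared with 1 h, 6 of 31 release genes rose and 5 fell, and 20 did not pass the test. The genes that rose were Snap25, Rims2, Pclo, Cplx2, Syt1 and Napb, by 0.85 to 1.60 on the log2 scale. The genes that fell were Stx1a, Slc17a7, Rab3a, Sv2a and Napa, with log2 changes of -1.14 to -0.94. Rises and falls thus occurred within the same functional group: a SNARE rose and another fell, and the same held for the SNAP adaptors. With a trend in GC content and length removed, Stx1a (-0.17), Napa (-0.33) and Napb (0.09) no longer passed, and these opposed pairs were not called. The test was edgeR's quasi-likelihood test over 3 and 4 libraries with Benjamini-Hochberg adjustment at 0.05, in which 20.5% of all rows were called higher and 17.2% lower, so the members' 6 and 5 of 31 lay near the background. The median log2 change of the members was -0.13, beside -0.03 over all rows. Without the cortex control 1 h library no member and no row passed. Without the hippocampus control 1 h library 3 members rose and 1 fell, beside 1166 and 664 of 16437 rows, and without the cortex conditioned 6 h library also 3 and 1, beside 1567 and 973 of 16169. Without the hippocampus control 6 h library, which stood apart, 7 rose and 8 fell, beside 3432 and 3078 of 16510 rows, and without the hippocampus conditioned 6 h library also 7 and 8, beside 3784 and 3543 of 16380. With upper-quartile scaling, which shifted the median of all rows to -0.15, the split was 6 higher and 9 lower, beside 2794 and 3284 of 16378 rows. The interval after the session and the time of day at dissection cannot be told apart.

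Among the SNARE proteins, Snap25 had 8395.4 CPM in cortex control, 5956.7 in hippocampus control, and 8148.2 and 8075.5 in the cortex and hippocampus libraries of conditioned mice at 1 h. At 6 h it had 23611.0 in cortex control, 25250.2 in cortex conditioned, 26627.3 in hippocampus control and 15098.0 in hippocampus conditioned. All 6 h libraries were above all 1 h libraries, and the conditioned hippocampus was the lowest of the 6 h libraries. The log2 change was 1.60 ± 0.29 (SE, edgeR adjusted p = 0.00656), and the means were 7488.0 ± 1333.6 CPM (SD, n = 3) and 22646.6 ± 5181.2 (SD, n = 4). For the genes that follow, values of the 1 h controls and of the conditioned pair are given in the order cortex, hippocampus. Stx1a, the syntaxin that forms the plasma membrane part of the complex with SNAP-25, went the other way. In cortex it had 226.2 CPM in control at 1 h, and 118.1 in control and 98.1 in conditioned mice at 6 h. In hippocampus it had 60.5 CPM in control at 1 h, and 23.0 in control and 42.1 in conditioned mice at 6 h, and the pair of conditioned 1 h libraries had 138.0 and 152.2. Stx1a was lower at 6 h within each tissue, although the times overlapped over both tissues, and its log2 change was -1.14 ± 0.25 (SE, edgeR adjusted p = 0.0106). Vamp2 was between 2355.5 and 2482.7 CPM at 1 h and between 1217.2 and 1849.5 at 6 h. These ranges did not overlap, but its log2 change of -0.64 ± 0.25 missed the threshold (edgeR adjusted p = 0.0615). Vamp1, the vesicle SNARE used mainly by fast-firing neurons, had 97.3 and 106.1 CPM in the 1 h controls, 96.5 and 102.3 in the conditioned pair, 90.4 and 102.2 in cortex control and conditioned at 6 h, and 57.6 and 110.9 in hippocampus control and conditioned at 6 h. It was lower in the hippocampus control at 6 h than in any other library and did not pass (log2 change -0.25).

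**Figure D2:**
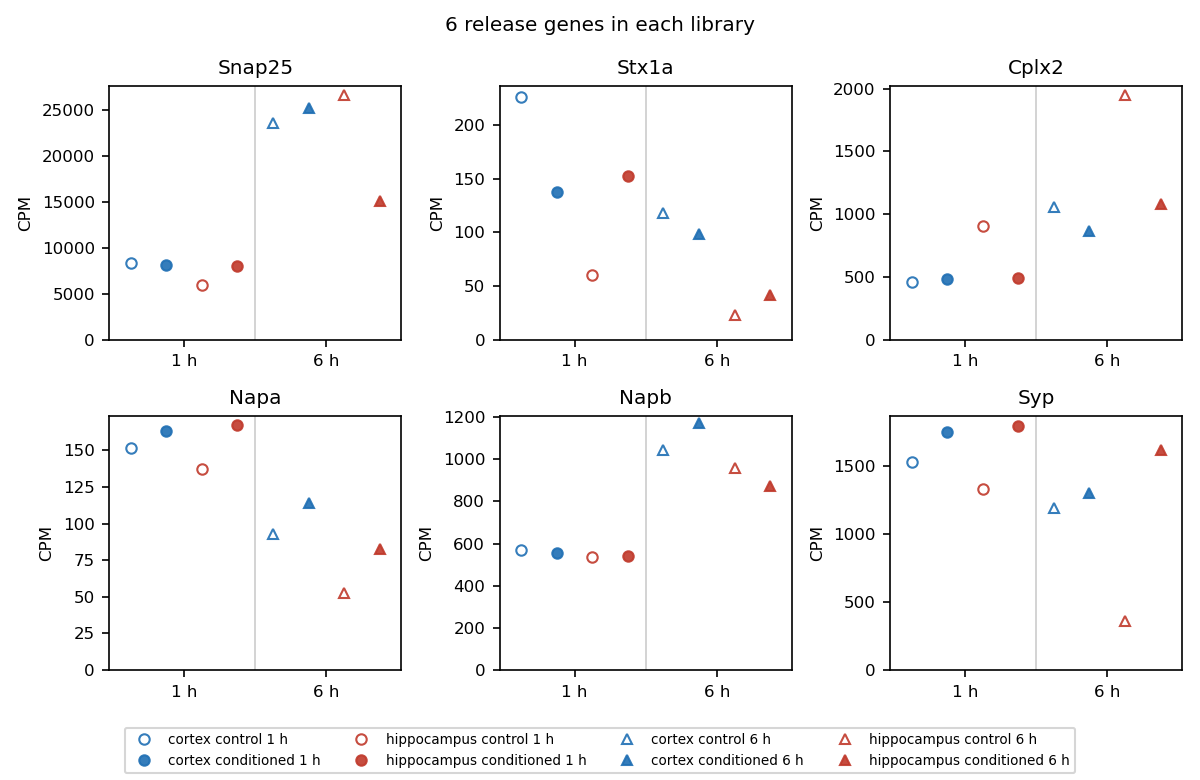
CPM with TMM factors of Snap25, Stx1a, Cplx2, Napa, Napb and Syp in each library, 1 h to the left and 6 h to the right of the grey line, each axis from 0. Snap25 and Napb lie higher in all 6 h libraries and Napa lower, Stx1a is low in the hippocampus control and 6 h libraries, and Syp in the hippocampus control 6 h library lies at 358.6 against 1194.1 or more elsewhere.

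The SNARE disassembly factors are the ATPase Nsf and its adaptors alpha-SNAP (Napa) and beta-SNAP (Napb), of which the second is largely restricted to brain. Napa had 151.7 and 137.3 CPM in the cortex and hippocampus controls at 1 h and 163.1 and 167.5 in the conditioned pair. Napa then had 92.6 at 6 h in cortex control, 114.0 in cortex conditioned, 52.4 in hippocampus control and 82.8 in hippocampus conditioned. Every 6 h value was below every 1 h value (log2 change -0.94 ± 0.23 SE, edgeR adjusted p = 0.0143). Napb was nearly level at 1 h, with 569.5 and 535.5 CPM in the controls and 556.5 and 538.8 in the conditioned pair. Its 6 h values were 1042.8 and 1171.7 in cortex control and conditioned and 960.0 and 874.3 in hippocampus control and conditioned. Here every 6 h value was above every 1 h value (log2 change 0.85 ± 0.23 SE, edgeR adjusted p = 0.018). Nsf had 1183.2 and 1114.5 CPM in the 1 h controls, 1114.1 and 1102.2 in the conditioned pair, 1185.4 and 1317.0 in cortex control and conditioned at 6 h, and 1959.1 and 1571.7 in hippocampus control and conditioned at 6 h. The 6 h hippocampus libraries were the highest, and the log2 change of 0.38 missed the threshold.

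In the counts with TMM factors the 2 adaptors moved in opposite directions, and so their messages are set side by side here. With the GC and length trend removed, neither passed (log2 changes -0.33 for Napa and 0.09 for Napb). Over the aligned coding sequence, 675 of 885 bases were identical (76.3%). The first 120 coding bases are printed from the start codon on, from the reference transcript sequences of GENCODE M21 matched by RefSeq identifier (chromosomes 7 and 2 of GRCm38), and capitals mark bases that differ between the adaptors.
Napa: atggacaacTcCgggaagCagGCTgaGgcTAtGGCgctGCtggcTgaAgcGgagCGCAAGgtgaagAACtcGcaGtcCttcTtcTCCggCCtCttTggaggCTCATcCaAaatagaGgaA
Napb: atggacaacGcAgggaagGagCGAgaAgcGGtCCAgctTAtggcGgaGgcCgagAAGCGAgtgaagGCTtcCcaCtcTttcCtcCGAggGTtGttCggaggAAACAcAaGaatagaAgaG
In this stretch 46 bases differed, 24 of them at the third position of a codon. The whole transcripts differed in base composition, with a GC content of 54.9% for Napa and 44.2% for Napb. The printed stretches were close, at 56.7% and 55.8%.

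Complexins are small proteins that bind the assembled SNARE complex. Cplx2 had 461.8 CPM in cortex control at 1 h, 904.0 in hippocampus control, and 479.7 and 489.4 in the conditioned pair. At 6 h it had 1054.9 in cortex control, 869.6 in cortex conditioned, 1946.4 in hippocampus control and 1078.9 in hippocampus conditioned. The hippocampus control was the highest library at either time, and the hippocampus control at 1 h was above the conditioned cortex at 6 h, so the times overlapped. With tissue in the model, the log2 change was 1.08 ± 0.24 (SE, edgeR adjusted p = 0.0106). Cplx1 had 596.9 and 612.5 CPM in the 1 h controls, 606.8 and 628.2 in the conditioned pair, 408.8 and 434.0 in cortex control and conditioned at 6 h, and 412.1 and 487.0 in hippocampus control and conditioned at 6 h. The times were apart, but the log2 change of -0.52 ± 0.22 missed the threshold (edgeR adjusted p = 0.08). The coding sequences of the complexins are close, with 320 of 402 bases identical (79.6%), and their first 120 bases are shown because the change of only one of them passed the test. Capitals again mark the differing bases, and the genes lie on chromosomes 5 and 13 of GRCm38.
Cplx1: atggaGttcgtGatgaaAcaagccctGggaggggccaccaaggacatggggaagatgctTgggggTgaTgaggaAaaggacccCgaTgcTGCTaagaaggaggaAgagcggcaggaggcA
Cplx2: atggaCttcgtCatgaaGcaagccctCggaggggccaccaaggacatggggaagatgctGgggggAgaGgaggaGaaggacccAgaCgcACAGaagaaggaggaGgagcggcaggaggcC
Of the 16 differing bases, 14 were at the third position of a codon. The transcripts had a GC content of 56.0% (Cplx1) and 53.7% (Cplx2).

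Of the 5 synaptotagmins only Syt1, the main calcium sensor of fast release in forebrain, passed the test in the counts with TMM factors. Syt1 had 573.1 and 577.3 CPM in the controls and 656.0 and 656.9 in the conditioned pair at 1 h. Values at 6 h were 1004.2 and 1150.0 in cortex control and conditioned and 1331.8 and 1010.1 in hippocampus control and conditioned. The 6 h libraries were all higher, by 0.88 ± 0.24 on the log2 scale (SE, edgeR adjusted p = 0.0193). With the GC and length trend removed, Syt1 did not pass (log2 change 0.28, edgeR adjusted p = 0.35), whereas Syt4 and Syt7 did. Syt11, a synaptotagmin that does not bind calcium, was between 331.5 and 510.3 CPM over all libraries with a log2 change of 0.27. Syt4, which also lacks normal calcium binding and is carried on dense core vesicles, ranged from 58.5 to 112.1 CPM with a change of 0.22. Syt7, the slow calcium sensor of asynchronous release, ranged from 75.4 to 140.2 CPM with a change of -0.13. Syt2 was the scarcest of this group, with 14.9 and 8.64 CPM in the 1 h controls, 12.9 and 11.7 in the conditioned pair, 11.3 and 13.2 in cortex control and conditioned at 6 h, and 4.03 and 12.1 in hippocampus control and conditioned at 6 h. Its lowest value rested on 7 counts.

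Among the 7 vesicle proteins, Rab3a and Sv2a fell. Rab3a had 710.9 and 523.9 CPM in the cortex and hippocampus controls at 1 h and 637.8 and 616.0 in the conditioned pair. By 6 h it had 344.7 and 376.6 in cortex control and conditioned, 147.9 in hippocampus control and 449.8 in hippocampus conditioned. The times did not overlap (log2 change -1.08 ± 0.31 SE, edgeR adjusted p = 0.0243). Sv2a, the vesicle glycoprotein bound by the drug levetiracetam, had 228.5 and 161.9 CPM in the 1 h controls and 215.3 and 214.7 in the conditioned pair. It had 112.5 and 133.4 in cortex control and conditioned at 6 h, 44.3 in hippocampus control and 171.3 in hippocampus conditioned. The last of these lay above the hippocampus control at 1 h, so the times overlapped, with a log2 change of -1.02 ± 0.33 (SE, edgeR adjusted p = 0.0369). Its relative Sv2b had 474.1 to 740.3 CPM at 1 h and 758.1 to 1160.3 at 6 h, and its change of 0.56 missed the threshold (edgeR adjusted p = 0.123). Sv2c, known mainly from basal ganglia, was scarce, with 20.7 and 11.1 CPM in the 1 h controls, 16.5 and 11.7 in the conditioned pair, 21.5 and 22.1 in cortex control and conditioned at 6 h, and 9.21 and 13.0 in hippocampus control and conditioned at 6 h. The times overlapped (log2 change 0.05).

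Syp, Syn1 and Syn2 did not pass. Syp had 1529.4 and 1333.6 CPM in the 1 h controls, 1753.8 and 1797.3 in the conditioned pair, 1194.1 and 1307.1 in cortex control and conditioned at 6 h, and 358.6 and 1620.6 in hippocampus control and conditioned at 6 h. One library, the hippocampus control at 6 h, was far below all others. Syn1 had its highest value in the same library, 2874.2 CPM, beside 958.9 to 1519.9 in the others. Syn2 was nearly constant at 1 h, 463.5 to 480.6 CPM, and spread from 305.7 to 514.5 at 6 h.

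Slc17a7 (VGLUT1), which loads glutamate into vesicles of cortical and hippocampal excitatory neurons, had 784.4 and 668.8 CPM in the 1 h controls and 919.7 and 919.1 in the conditioned pair. At 6 h it had 400.2 and 350.0 in cortex control and conditioned, 242.9 in hippocampus control and 553.5 in hippocampus conditioned. The 6 h libraries were all lower (log2 change -1.13 ± 0.28 SE, edgeR adjusted p = 0.0136). Slc17a6 had 3.14 and 6.86 CPM in the 1 h controls, 8.38 and 7.67 in the conditioned pair, 7.49 and 9.70 in cortex control and conditioned at 6 h, and 13.2 and 8.83 in hippocampus control and conditioned at 6 h. The lowest value was in cortex control at 1 h and the highest in hippocampus control at 6 h, and the log2 change of 0.64 missed the threshold.

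In the active zone, Rims2 and Pclo rose. Rims2, a RIM scaffold that tethers calcium channels to docked vesicles, had 30.6 and 33.0 CPM in the 1 h controls and 31.7 and 29.2 in the conditioned pair. It had 83.5 and 81.8 in cortex control and conditioned at 6 h, 119.1 in hippocampus control and 57.4 in hippocampus conditioned. Levels were thus tightly grouped at 1 h and all higher at 6 h, with a log2 change of 1.45 ± 0.27 (SE, edgeR adjusted p = 0.00707). Pclo (piccolo), a very large scaffold protein, had 434.6 and 318.9 CPM in the 1 h controls and 380.7 and 381.3 in the conditioned pair. It had 759.7 and 649.1 in cortex control and conditioned at 6 h, 1400.8 in hippocampus control and 528.4 in hippocampus conditioned. The times did not overlap, and the hippocampus control at 6 h was the highest (log2 change 1.12 ± 0.32 SE, edgeR adjusted p = 0.0222). With the GC and length trend removed, Pclo did not pass (log2 change 0.47, edgeR adjusted p = 0.177). Bsn (bassoon), the partner scaffold of piccolo, had 681.1 and 487.4 CPM in the 1 h controls, 668.7 and 692.6 in the conditioned pair, 529.8 and 446.6 in cortex control and conditioned at 6 h, and 603.2 and 451.2 in hippocampus control and conditioned at 6 h. The times overlapped, and its change of -0.28 missed the threshold. Rims1 went from 71.4 to 103.8 CPM at 1 h to between 116.7 and 130.6 at 6 h, without overlap, and its change of 0.58 ± 0.23 also missed it (edgeR adjusted p = 0.0675). Unc13a (Munc13-1), which opens syntaxin for priming, had a change of -0.71 ± 0.27 (edgeR adjusted p = 0.0606).

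No endocytic gene passed. Dnm1 (dynamin-1, the GTPase that pinches vesicles off) had 1573.3 and 1038.1 CPM in the 1 h controls, 1350.2 and 1360.6 in the conditioned pair, 937.9 and 815.7 in cortex control and conditioned at 6 h, and 866.7 and 996.8 in hippocampus control and conditioned at 6 h. All 6 h values were lower, with a log2 change of -0.56 ± 0.25 that missed the threshold (edgeR adjusted p = 0.0923). Synj1 (synaptojanin-1, a phosphoinositide phosphatase that uncoats vesicles) had 575.8 to 659.6 CPM at 1 h and 756.9 to 1662.1 at 6 h (log2 change 0.63 ± 0.29, edgeR adjusted p = 0.11). Amph (amphiphysin), which recruits dynamin, had 257.0 and 181.6 CPM in the 1 h controls, 218.7 and 214.3 in the conditioned pair, 160.3 and 174.0 in cortex control and conditioned at 6 h, and 139.3 and 239.7 in hippocampus control and conditioned at 6 h. Its times overlapped, since the hippocampus conditioned library at 6 h was among the highest.

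The change between the times went with base composition. Across the 31 release genes, the Spearman correlation of the log2 change with transcript GC content was -0.70, and across 11891 genes it was -0.78. These are correlations across genes of the same libraries, which are not independent replicates. The genes called higher had a GC content of 43.4% to 53.7% (median 46.9%) and those called lower of 54.2% to 58.5% (median 55.8%), so the sets did not overlap. When a smooth trend with GC content and transcript length was removed within each library, 4 members were called higher and 1 lower, beside 7.20% and 3.72% of all rows. Cplx2 (log2 change 1.45 ± 0.24, edgeR adjusted p = 0.0109), Rims2 (1.19 ± 0.22, adjusted p = 0.0137) and Snap25 (0.87 ± 0.26, adjusted p = 0.0489) were called higher with and without this step. Syt7 was called higher only with it (1.05 ± 0.19, edgeR adjusted p = 0.013), and Syt4, with the lowest GC content of the list at 40.7%, was called lower only with it (-0.86 ± 0.20, edgeR adjusted p = 0.026). Napa, Napb, Syt1 and Pclo then had changes of -0.33, 0.09, 0.28 and 0.47. Of the genes that had risen, Napb, Syt1 and Pclo no longer passed, nor did any of the 5 genes that had fallen.

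**Figure D3:**
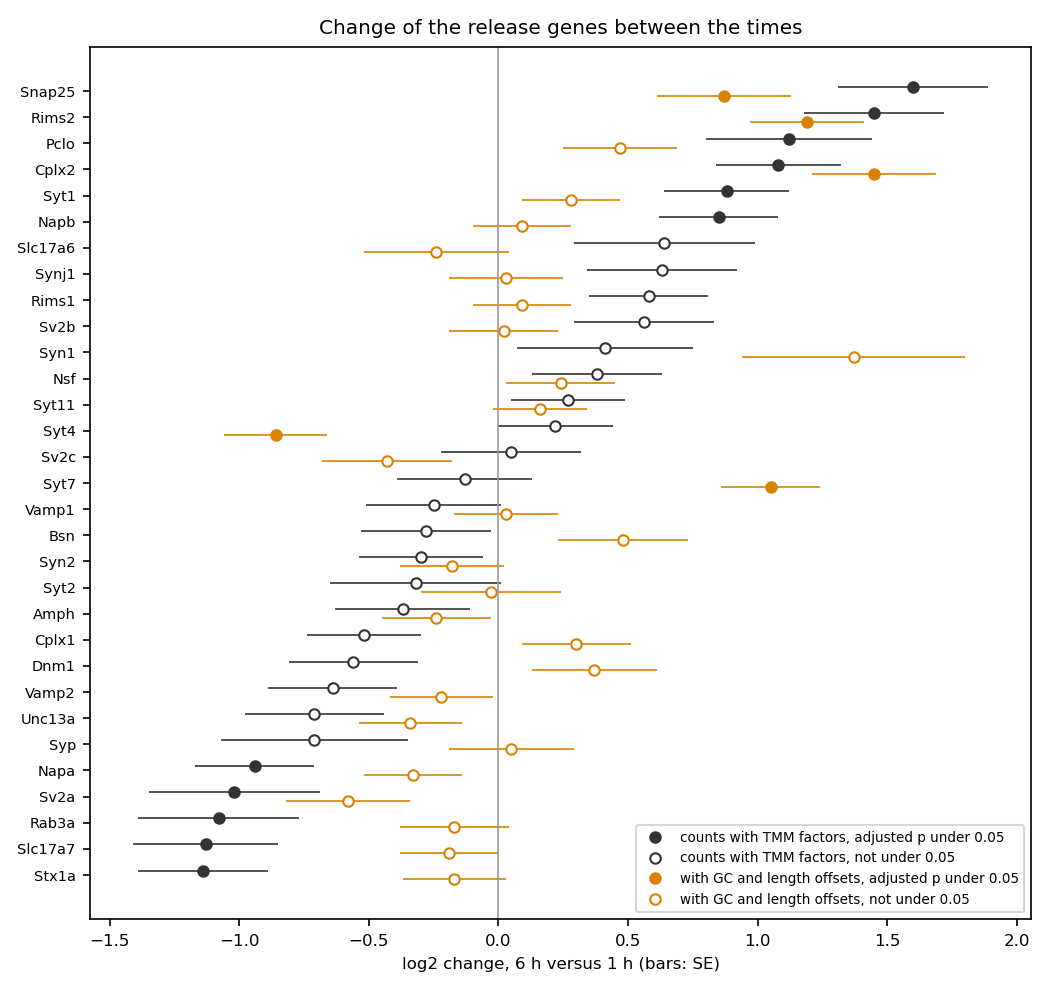
Log2 change at 6 h against 1 h of each release gene with its standard error, from counts with TMM factors (black) and after removal of a trend in GC content and length (orange), with filled points at an edgeR adjusted p under 0.05. Snap25, Rims2 and Cplx2 are filled in both colours, and the 5 lowest genes are filled in black only.

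**Figure D4:**
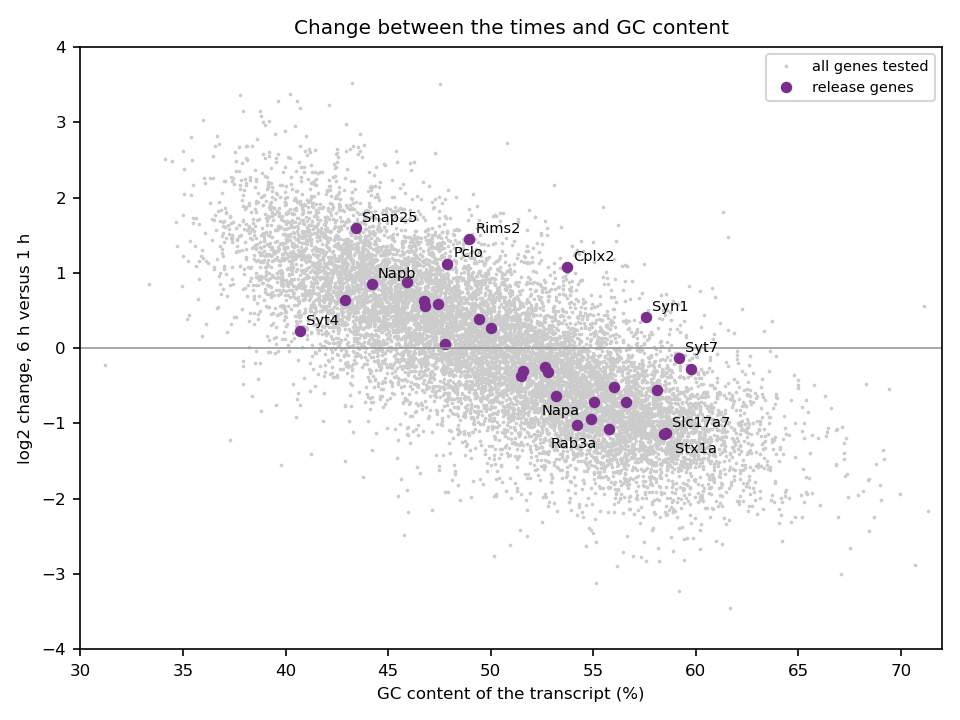
Log2 change at 6 h against 1 h plotted against transcript GC content in percent, for all genes tested (grey) and the release genes (purple). Points run from upper left to lower right, with Spearman correlations of -0.78 over all genes and -0.70 over the release genes, and Cplx2 and Syn1 lie above the band.

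Cell type markers were read beside this comparison. Of 4 pan-neuronal markers, Snap25, itself a release gene, and Map2 rose and Tubb3 fell. With the GC and length trend removed, Rbfox3 and Snap25 were called higher and Tubb3 lower. Of 6 astrocyte markers 2 rose and 2 fell, and of 6 oligodendrocyte markers 1 rose and 2 fell. Summed astrocyte markers were at 783.9 to 964.8 CPM at 1 h and 1157.0 to 1583.8 at 6 h, and summed oligodendrocyte markers at 810.6 to 1269.1 and 644.2 to 1216.3. Such sums follow their most abundant markers. The median log2 change was -0.20 over the astrocyte markers and -0.17 over the oligodendrocyte markers. All 4 endothelial markers were at 0 in at least 1 library, and their sum never exceeded 4.98 CPM. The part of cell composition in the changes of the release genes was not tested.

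Between the tissues, only Stx1a of the 31 release genes passed the test, and it was lower in hippocampus (log2 difference -1.82). That count lay near the share of all rows called, given below. With 2 residual degrees of freedom, smaller differences could have been missed. In the 6 libraries compared, the cortex had 226.2, 118.1 and 98.1 CPM of Stx1a and the hippocampus 60.5, 23.0 and 42.1, and these values, given above by time and training, did not overlap. The log2 difference was -1.82 ± 0.34 (SE, 3 libraries a tissue, edgeR adjusted p = 0.00204), in a comparison where 3.72% of all rows were called in either direction. The median difference of the members was -0.13, beside 0.00 over all rows. The call was lost without the cortex control 1 h library (log2 difference -1.77, edgeR adjusted p = 0.0759), without the hippocampus control 1 h library (also -1.77, edgeR adjusted p = 0.105) and with all 8 libraries kept as labelled (log2 difference -1.31, edgeR adjusted p = 0.248). Without the hippocampus control 6 h library it was kept (log2 difference -1.60, edgeR adjusted p = 2.89e-05).

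Unc13a, Sv2c and Syt4 also lay on one side in all 6 libraries, without passing the test. The share of all genes separated in this way is not given here, so the separation is only a description. This holds too for the members whose times did not overlap. Unc13a had 382.5, 193.8 and 181.3 CPM in the cortex libraries and 138.8, 90.9 and 156.9 in the hippocampus libraries, a log2 difference of -0.93 ± 0.34 (edgeR adjusted p = 0.163). Sv2c had 20.7, 21.5 and 22.1 CPM in cortex and 11.1, 9.21 and 13.0 in hippocampus (log2 difference -0.95 ± 0.37, edgeR adjusted p = 0.211). With the GC and length trend removed, Sv2c passed beside Stx1a (-1.05 ± 0.31, edgeR adjusted p = 0.0452), and 6.46% of all rows were called in either direction. Syt4 had 85.0, 89.9 and 112.1 CPM in cortex and 58.5, 73.1 and 76.7 in hippocampus, with a log2 difference of -0.47. Cplx2 had the largest positive difference, 0.71 ± 0.33, with overlap between the tissues (edgeR adjusted p = 0.336). Slc17a7 (-0.11), Vamp2 (-0.13) and Syt1 (0.07) were close to level, each with a standard error of 0.32 to 0.34.

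Markers of the tissues were read in the same libraries. Of 7 cortical excitatory markers 5 were lower in hippocampus, with a sum of 666.2 to 697.4 CPM in cortex and 173.0 to 320.0 in hippocampus. Of 7 hippocampal excitatory markers 4 were higher there, with sums of 367.1 to 395.2 CPM in cortex and 761.3 to 1028.5 in hippocampus. Striatal markers were also present in the cortex libraries, with 4 of 6 lower in hippocampus and sums of 156.1 to 338.9 CPM in cortex against 29.4 to 61.1. Dsp, among the hippocampal markers, and Adora2a, among the striatal ones, were at 0 in at least 1 library. The part of striatal tissue in the differences of Stx1a or Sv2c was not tested.

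Fear conditioning was compared with context exposure over 3 conditioned and 4 control libraries with tissue and time in the model. No release gene and no row passed edgeR's quasi-likelihood test (0.00% called in either direction). Unadjusted p-values under 0.05 were found for 296 of 16378 rows and for none of the 31 members. DESeq2 and limma-voom also called no row, with unadjusted p under 0.05 for 3 and 2 members, and edgeR called none without the hippocampus control 6 h library. The median log2 difference of the members was 0.11, beside 0.00 over all rows, and 21 of 31 were positive, beside 8251 of 16378 rows. With the GC and length trend removed, 16 of 31 members were positive, with a median of 0.06, beside 7339 of 15930 rows. The largest estimates were those of Syp (0.77 ± 0.37 SE), Sv2a (0.71 ± 0.34), Rab3a (0.53 ± 0.32), Cplx2 (-0.50 ± 0.24) and Pclo (-0.50 ± 0.31), none of them past the threshold (edgeR adjusted p = 0.943 for each). Standard errors of the members ran from 0.22 to 0.37, so differences of this order were not detectable with these libraries.

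Within a tissue and time, each comparison rests on 1 library a group and has no test. In cortex at 6 h, the conditioned library was close to its control for every member, with log2 ratios from -0.28 (Cplx2) to 0.35 (Sv2b and Slc17a6), and none reached a doubling or halving. In hippocampus at 6 h the ratios ran from -1.49 (Syn1) to 2.17 (Syp), and 9 members were past 2-fold in either direction. Sv2a (1.94), Rab3a (1.60), Syt2 (1.48) and Slc17a7 (1.19) were higher in the conditioned library, and Pclo (-1.41), Synj1 (-1.08) and Rims2 (-1.05) were lower. For each of these genes the hippocampus control 6 h library held the lowest or the highest of the 8 values, as set out above. At 1 h, where the conditioned value is the mean of the pair, the ratios ran from -0.64 (Stx1a) to 1.23 (Slc17a6) against the cortex control and from -0.90 (Cplx2) to 1.25 (Stx1a) against the hippocampus control. These ratios share the same conditioned value and rest on the labels of that pair.

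**Figure D5:**
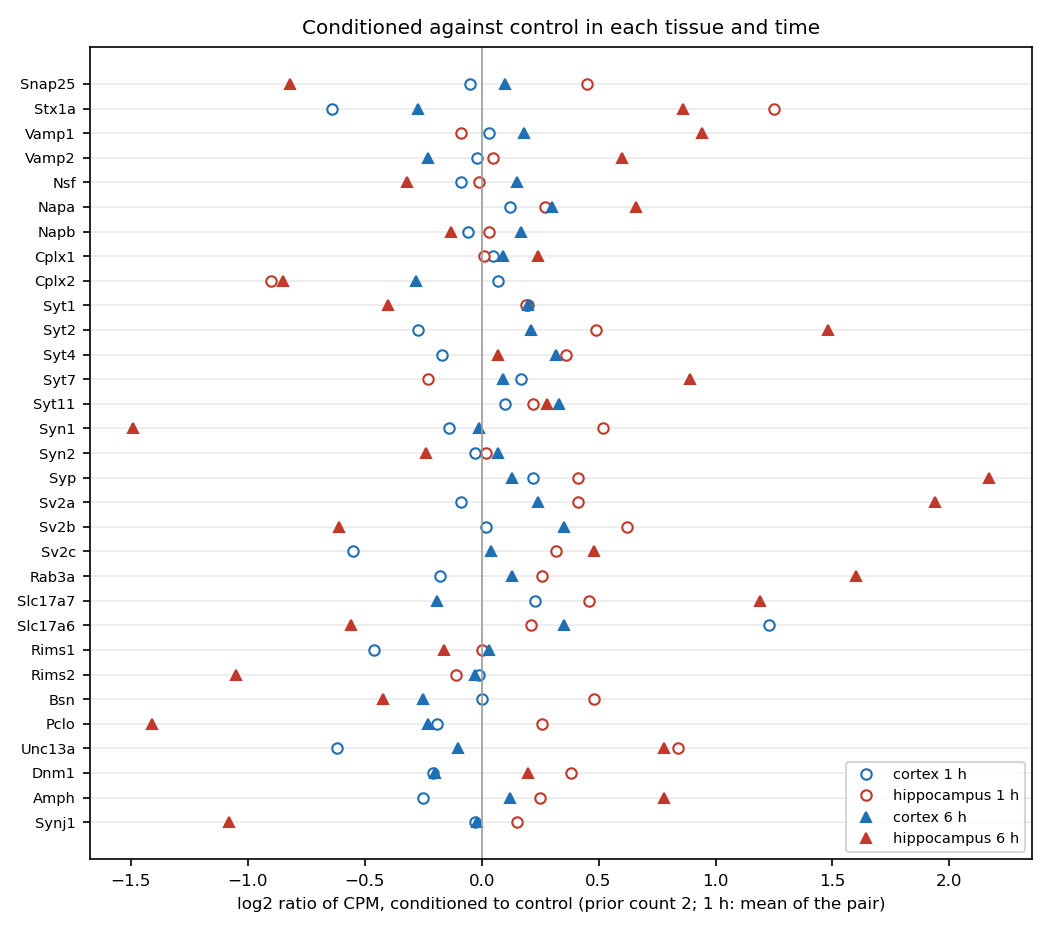
Log2 ratio of conditioned to control CPM of each release gene within each tissue and time, with a prior count of 2 and, at 1 h, the mean of the conditioned pair. Cortex at 6 h (blue triangles) stays between -0.28 and 0.35, and hippocampus at 6 h (red triangles) spreads from -1.49 to 2.17.

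Whether the effect of training or of time differed between the tissues was tested as an interaction in the same 7 libraries, with 2 residual degrees of freedom. No member and no row passed for either (0.00% called by edgeR's quasi-likelihood test). Unadjusted p-values under 0.05 were found for 696 rows (training by tissue) and 372 rows (time by tissue), and for none of the members. The members with the lowest unadjusted p were Slc17a7 and Unc13a for training by tissue, with differences of 1.15 ± 0.51 and 1.09 ± 0.49 on the log2 scale (edgeR adjusted p = 0.848 for both). With 1 library fewer, each interaction fit had 1 residual degree of freedom, and whether any row passed depended on which library was left out. Such a fit has nearly as many terms as samples, so its calls are given only as counts, under the processing settings below. No member is named from these fits and no conclusion is drawn from them.

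Another 85 genes of the release and recycling pathway were read in the same fits. In the comparison of tissues 81 could be tested, of which 1 was higher and 2 were lower in hippocampus, a share near the 3.72% of all rows. Doc2b, a soluble calcium sensor with a pair of C2 domains, was higher (log2 difference 2.06 ± 0.36, edgeR adjusted p = 0.00107), with 16.2, 25.3 and 15.5 CPM in cortex and 84.8, 62.7 and 88.8 in hippocampus. Its paralogue Doc2a was lower (-1.66 ± 0.38, edgeR adjusted p = 0.0132), with 41.6, 23.4 and 29.9 CPM in cortex and 18.2, 4.03 and 10.2 in hippocampus. Syt6 was lower too (-1.60 ± 0.39, edgeR adjusted p = 0.021), and the tissues did not overlap for any of the 3 genes. For each of them the call was kept with the GC and length trend removed, but none was called with all 8 libraries as labelled (lowest edgeR adjusted p of the list 0.248) or without the hippocampus control 1 h library (0.0593). Doc2a and Syt6 were also lost without the cortex control 1 h or the hippocampus conditioned 6 h library, and Syt6 without the cortex conditioned 6 h library.

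Between the times 82 of these genes were tested, and 23 rose and 20 fell, beside the background of 20.5% and 17.2% given above. The largest rises were those of Ppfia2 (liprin-alpha2, an active zone scaffold; log2 change 2.13 ± 0.35), Rab27b (a vesicle GTPase; 1.97 ± 0.34) and Itsn2 (intersectin-2, an endocytic scaffold; 1.93 ± 0.31), each with an edgeR adjusted p of 0.0064. The largest falls were those of Ap2s1 (the small subunit of the clathrin adaptor AP-2; -2.53 ± 0.57), Svop (a transporter-like vesicle protein; -2.01 ± 0.45) and Rims3 (a short RIM; -1.70 ± 0.50), with edgeR adjusted p-values of 0.0108, 0.0108 and 0.0249. With the GC and length trend removed, 11 were called higher and 4 lower, beside 7.20% and 3.72% of all rows. Ppfia2 (edgeR adjusted p = 0.0137), Itsn2 (1.45, adjusted p = 0.0109) and Svop (-1.16, adjusted p = 0.0481) kept their calls, whereas Rab27b (0.46), Ap2s1 (-1.17) and Rims3 (-0.66) did not. Rims3 was at 0 in the hippocampus control 6 h library and Ap2s1 at 0.576 CPM. For training, none of the 82 passed edgeR's test, with an unadjusted p under 0.05 for 4, beside 296 of 16378 rows.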

How the data were processed

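The deposited values of all 8 libraries were raw counts of reads for each RefSeq transcript, in a single table. CASAVA 1.7, TopHat 1.3.1, edgeR 2.612, limma 3.12.3 and mm9 are named in the submitters' processing notes, without their roles. How reads were counted, by strand or when shared, is not stated there, so isoforms and close paralogues could share reads. Reads without molecular identifiers are not independent molecules.

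Of 28157 rows, 97.9% were matched to a symbol through RefSeq and GENCODE M21 tables of GRCm38, used for names, GC content and length. The 594 unmatched rows (1.19% to 1.99% of a library's counts) stayed in the tests by identifier. Tests were run in R 4.3.3 with edgeR 4.0.16 (robust quasi-likelihood fit, TMM, default low-count filter, Benjamini-Hochberg over all rows, threshold 0.05). Tissue was tested in 6 libraries with time and training as terms (2 residual degrees of freedom), and time and training in 7 samples with the other factors as terms (3 residual degrees of freedom). The summed conditioned 1 h pair had a tissue code of 0.5. Standard errors of edgeR changes were taken as the absolute log2 change divided by the square root of the test's F statistic. All 31 members passed the low-count filter. Alternatives included DESeq2 1.42.0, limma-voom (limma 3.58.1), other scalings, offsets from splines in GC content and length (5 degrees of freedom each), and leaving out each library. On simulated counts with 200 genes changed by 2 on the log2 scale, 97.0% (tissue), 99.5% (time) and 99.5% (training) were recovered. The changed genes were drawn from those above the median level, with the same variability for every gene. The simulation held no GC trend and no library that stood apart. Smaller changes, such as those of the members, were not simulated.

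All members were described; values in every library were given for those that passed a test and for the most and least abundant of each role. Of the other pathway genes, the 3 largest rises and falls that passed were named. Members and lists were chosen with earlier results of these data known. One striatal marker is not reported here and was left out of its list.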

Additional observations from a re-analysis of the deposited data

Results flagged for a closer look

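In groups of 4 libraries, 62 highest-or-lowest tests were made over the 31 release genes, and 2 values stood apart from the rest of their group. Chance alone sets apart about 1 in 20 groups. Nsf had 1959.1 CPM in the hippocampus control 6 h library, while the other control libraries held 1114.5 to 1185.4, a gap of 0.916 of the group's range. Synj1 had 1662.1 CPM in the same library, while the other 6 h libraries held 756.9 to 788.5, a gap of 0.965 of the range. In both cases this library held the highest value.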

How the results depend on the processing

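No paired analysis was possible because each combination of tissue, time and training had 1 library and the labels carry no replicate numbers. Precision is limited by 2 or 3 residual degrees of freedom and, for Syt2, Sv2c and Slc17a6, by low counts. Every cause below was not tested. For tissue, the count of members called lower (1) was 2 with GC and length offsets, 0 with all 8 libraries as labelled, 3 (Stx1a, Unc13a, Snap25) with offsets and without the hippocampus control 6 h library (chosen after seeing the data), and 0 to 1 leaving out 1 library at a time. For time, members called higher (6) numbered 1 when the conditioned 1 h pair and hippocampus control 6 h were both left out, and 0 to 7 leaving out 1 library. Members called lower (5) numbered 9 with upper-quartile factors (6 higher), 1 with offsets, 0 with offsets and without the pair, again 0 when that pair and the hippocampus control 6 h library were both left out, 1 with offsets and without the latter alone, and 0 to 8 leaving out 1 library. Upper-quartile factors moved the median of all rows from -0.03 to -0.15. With offsets and without the hippocampus control 6 h library, 637 of 16361 rows were called higher and 739 lower for tissue. For time in that setting, 5 members and 1412 of 16061 rows were called higher, and 1 member and 1044 rows lower. The interaction counts that come next are from fits with 1 residual degree of freedom. Such fits have nearly as many terms as samples, so no conclusion is drawn from these counts. Their highest values were found among 17022 rows tested for training by tissue and 17018 for time by tissue. Leaving out 1 library gave 0 to 10 higher and 0 to 6 lower for training by tissue, and 0 to 8 higher and 0 to 4 lower for time by tissue, beside up to 2430 higher and 2065 lower and up to 1246 and 1524 of all rows.

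Among time changes called by either fit, these changed sign, all with offsets: Syt4 had -0.86 (-0.74 with offsets and without the hippocampus control 6 h library) and Syt7 1.05 (0.96 with offsets and without that library, 1.07 with offsets and without the pair). With offsets and without the pair together, Stx1a had 0.04 and Napb -0.02. Members called by neither fit also changed sign, among them Cplx1 (0.30), Dnm1 (0.37), Bsn (0.48) and Slc17a6 (-0.24) with offsets, and Sv2c (-0.09) without the pair. Snap25, Cplx2 and Rims2 were each called in 18 of 20 alternatives. Over all rows, called counts for time went from 3358 higher and 2809 lower to 1147 and 593 with offsets, 642 and 208 with offsets and without the pair, and 793 and 335 when the hippocampus control 6 h library and the pair were left out. For tissue they went from 278 and 322 to 520 and 493 with offsets, and to 0 with all 8 libraries. No alternative called a member for training.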

Other observations

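Syn2 (synapsin-2) was counted on a pair of RefSeq rows, a transcript of 3854 bases and one of 2708 bases. The ratio of counts on the shorter to those on the longer row was 0.844 and 0.777 in the cortex and hippocampus controls at 1 h, and 0.839 and 0.846 in the conditioned pair. At 6 h it was 0.63 and 0.634 in cortex control and conditioned, and 0.823 and 0.806 in hippocampus control and conditioned. The cortex libraries at 6 h thus had the lowest ratios, while those of the hippocampus at 6 h lay within the range of the 1 h libraries. How reads shared by the rows were counted is not stated in the sources, and the ratio was not tested.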
